A study of Mus musculus with 4 samples.

Results

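The tumour necrosis factor (TNF) superfamily was followed across 4 microarrays of cultured mouse T helper (Th) cells. The set was a list of 43 genes, 17 ligands and 26 receptors, each found on the array through the transcript its probes were designed for. A probe was matched for 42 of them, with 55 probes in all, out of 18749 genes named on the array. Tnfsf13, the B cell factor APRIL, had no matched probe. Of the 42 genes, 36 had a signal well above background on at least 1 array and 28 on all 4 arrays.

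The study asked how the transcription factor Bach2 controls Th2-type responses. All 4 samples came from spleens of C57BL/6J mice labelled female, and the study's methods give an age of 8 to 12 weeks. The WT samples are labelled Bach2 WT, and the study's controls were CD4-Cre transgenic mice. The other samples are labelled Bach2 KO, from Bach2 flox/flox mice crossed with CD4-Cre transgenic mice, in which Cre is driven by the Cd4 promoter and so acts in the T cell lineage. Naive CD4 T cells (CD44 low, CD62L high, CD25 negative) of each genotype received immobilized anti-TCR-β at 3 μg per ml and anti-CD28 at 1 μg per ml for 2 days. They then grew for 3 more days with IL-2, at 2.5 ng per ml by the labels, while the study's methods give 10 ng per ml for its IL-2 condition. Cells were read as they were or after 4 h on immobilized anti-TCR-β, by the protocol without added IL-2. The sample titles mark the re-stimulated samples as IL-2 (+) and the others as IL-2 (-), which the protocol does not explain, and the grouping used here follows the source names, which state re-stimulation. There was 1 array for each of these 4 conditions. No difference therefore has a replicate check or a p-value, and the precision of all values is limited by the small number of arrays.

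TNF ligands are mostly trimers anchored in the membrane of the cell that makes them, and many are made by T cells only once the T cell receptor is engaged. Their receptors fall into a group with a cytoplasmic death domain, which can recruit adaptors for caspase-dependent death, and a group that binds TRAF proteins and signals to NF-kB, through which activated T cells receive survival and costimulatory signals. Several pairs work between T cells and B cells or dendritic cells, such as CD40 ligand with CD40 and BAFF with its receptors. A further few receptors lack a signalling tail and act as decoys.

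Some values bear on the labels. The probe for the targeted gene, Bach2, read 2932 in WT cells and 2633 for those labelled Bach2 KO before re-stimulation, and 3310 and 3080 after it, which gives no clear check of the genotype. The Y-linked gene Eif2s3y was at background in WT cells and read 1185 and 950.9 on the arrays labelled Bach2 KO. Xist, which silences an X chromosome in female cells, was detected throughout, with lower signals for the label Bach2 KO, at 4623 against 9524 before and 2585 against 5221 after re-stimulation. The arrays labelled Bach2 KO thus carried transcripts of male cells against their label. The study's methods give mice of both sexes for its in vitro experiments. Sex and genotype cannot be told apart in any comparison of the genotypes below. No comparison of the genotypes can be made without these arrays. The 10 T cell marker genes were well above background on all 4 arrays and none differed by 2-fold in any comparison. Cd8a was well above background on the re-stimulated array labelled Bach2 KO alone, at 63.0, and Cd8b1 had no matched probe. The part of CD8 T cells in the values below was not tested.

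Signals are given as the scanner's background-corrected intensity of a gene's brightest probe, not scaled between arrays. Differences are on the log2 scale after each array was set to its own 75th percentile, which was 436 (WT) and 434 (labelled Bach2 KO) before and 313 and 353 after re-stimulation, so a ratio of 2 signals is not the difference given. A gene was called at least 2-fold higher or lower, a rule of size and not a test, if the probe had passed the background limit on 1 or both of the arrays compared. A signal below background was raised to the lowest signal well above background on its array, between 14.5 and 17.2, and the fold is then a lower bound, written as at least. As a measure of error within 1 array, the spot error given by the scanner software was 0.07 to 0.53 for a log2 difference of a family gene past 2-fold in any comparison, with medians of 0.20 to 0.21. The medians of the SD between probes of 1 gene were 0.09 and 0.11 for the differences between genotypes and 0.16 and 0.14 for those between states. Neither includes the spread between mice, cultures or arrays. In these bulk samples a lower level can mean fewer cells that make a transcript or less of it per cell, and these cannot be told apart.

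Bach2 and its partner Batf are known to bind AP-1 letters, so the RefSeq promoter windows of family genes, 250 bases before to 50 bases after the start on GRCm38.p6, were searched for TGAGTCA and TGACTCA, each of which reads as the other on the opposite strand. The table held a window for 33 of the 43 genes. AP-1 letters were found in 6 of these (18.2%), against 5.95% of all 27025 genes in the table, and the 6 were Fas, Tnfrsf8, Tnfrsf9, Tnfsf13, Tnfsf13b and Tnfsf14. A consensus of NF-kB, the factor that TNF receptors signal to, was found on either strand in 4 genes (12.1%), Ltb, Tnfrsf25, Tnfrsf8 and Tnfrsf9, against 9.55% of all genes. The windows below are those of the 5 measured genes with AP-1 letters. They lie at chr4:145315115-145315414 (minus strand) for Tnfrsf8, chr4:150927749-150928048 (plus) for Tnfrsf9, chr8:10006383-10006682 (plus) for Tnfsf13b, chr17:57194132-57194431 (minus) for Tnfsf14 and chr19:34290409-34290708 (plus) for Fas. Capitals mark the AP-1 letters, 132, 15, 127, 160 and 211 bases before the start in that order, and in Tnfrsf8 and Tnfrsf9 also the NF-kB consensus. Another window of Tnfrsf9, chr4:150919905-150920204 (plus), held neither motif. In another window of Tnfsf13b, chr8:10006217-10006516 (plus), the AP-1 letters lie 40 bases after the start.
Tnfrsf8: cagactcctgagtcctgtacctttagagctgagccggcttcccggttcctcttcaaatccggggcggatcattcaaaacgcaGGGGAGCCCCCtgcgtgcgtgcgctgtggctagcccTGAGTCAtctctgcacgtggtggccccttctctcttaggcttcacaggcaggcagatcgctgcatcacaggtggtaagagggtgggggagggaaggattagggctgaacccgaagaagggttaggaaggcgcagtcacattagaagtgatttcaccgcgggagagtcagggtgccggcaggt
Tnfrsf9: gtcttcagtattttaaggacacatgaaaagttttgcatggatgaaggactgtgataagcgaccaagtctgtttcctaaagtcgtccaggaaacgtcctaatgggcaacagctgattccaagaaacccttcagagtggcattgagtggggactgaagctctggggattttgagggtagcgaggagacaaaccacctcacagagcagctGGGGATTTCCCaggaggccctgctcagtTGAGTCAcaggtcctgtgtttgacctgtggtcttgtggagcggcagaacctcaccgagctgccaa
Tnfsf13b: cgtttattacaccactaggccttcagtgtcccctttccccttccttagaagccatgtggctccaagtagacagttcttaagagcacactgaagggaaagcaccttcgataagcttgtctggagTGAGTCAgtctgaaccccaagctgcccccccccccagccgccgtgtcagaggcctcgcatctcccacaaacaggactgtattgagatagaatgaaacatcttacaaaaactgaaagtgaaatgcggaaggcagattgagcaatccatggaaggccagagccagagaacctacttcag
Tnfsf14: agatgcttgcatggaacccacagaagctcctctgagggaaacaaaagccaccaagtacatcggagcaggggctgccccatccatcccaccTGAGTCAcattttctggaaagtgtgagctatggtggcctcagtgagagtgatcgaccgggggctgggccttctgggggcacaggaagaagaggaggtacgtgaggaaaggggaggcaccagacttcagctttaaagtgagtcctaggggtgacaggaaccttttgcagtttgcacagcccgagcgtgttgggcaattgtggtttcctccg
Fas: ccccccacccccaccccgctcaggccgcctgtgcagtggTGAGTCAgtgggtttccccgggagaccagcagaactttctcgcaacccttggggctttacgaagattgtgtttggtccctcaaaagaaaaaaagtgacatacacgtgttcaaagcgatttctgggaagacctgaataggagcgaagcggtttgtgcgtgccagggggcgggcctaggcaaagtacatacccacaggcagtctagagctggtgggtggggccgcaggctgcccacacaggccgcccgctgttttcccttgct
A match describes these letters only and shows no binding. The windows shown for Tnfrsf8 and Tnfrsf9 are the only ones of the 33 genes that hold both motifs. Among all genes used in the comparison between genotypes before re-stimulation that have a window, AP-1 letters stood in 4.47% of 9774, in 11.3% of the 485 called higher in cells labelled Bach2 KO and in 3.32% of the 271 called lower. After re-stimulation the shares were 4.71% of 9917, 11.8% of the 500 called higher, which include Tnfrsf8 and Tnfsf13b, and 4.86% of the 370 called lower. On re-stimulation of WT cells the letters stood in 4.58% of 9964 genes and in 7.40% of the 1283 called higher, which include Fas, Tnfrsf9, Tnfsf13b and Tnfsf14. Between genotypes before re-stimulation, 5 of 24 family genes used with a window (20.8%) held the letters, and 3 of the 6 called higher. On re-stimulation of WT cells, 5 of 27 (18.5%) held them, and 4 of the 13 called higher. Whether the letters bear on these calls was not tested.

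Re-stimulation raised the ligands as a group. In WT cells 18 of the 35 family genes used (51.4%) were at least 2-fold higher after 4 h and 0 were lower, where 13.2% of all 12388 genes used were higher and 13.5% lower. The ligands made up 11 of these, out of 13 used, with a median log2 change of 2.98. Of the receptors 7 of 22 were higher, with a median of 0.64, and the median of all genes was -0.01. In cells labelled Bach2 KO 17 of 34 family genes (50%) were higher and 1, Tnfrsf1a, was lower, where 12.4% of all 12395 genes were higher and 13.0% lower. Of the ligands 10 of 13 were higher there, with a median of 2.92, and of the receptors 7 of 21, with a median of 0.52. The called lists shared 16 genes. How far the lists of all genes overlap is not given here, so the shared genes are not read as a trait of the family. Tnfrsf1b and Tnfsf13b were called in WT cells alone and Cd27 in cells labelled Bach2 KO alone. Cd70, Cd40 and, in WT cells, Tnfsf13b were used only because the re-stimulated array showed them. A stricter filter, on which neither array of a pair may be below background, left 15 family genes higher in each genotype. Over all genes it left 1207 of 11112 higher in WT cells and 1164 of 11161 in cells labelled Bach2 KO.

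The split of all called genes depended on the scaling, that of the family less so. Higher genes were 49.3% of all called genes in WT cells and 48.9% for those labelled Bach2 KO, against 29.1% and 30.8% when arrays were scaled to their median, and 71.5% and 67.7% when the Cd3e probe was the reference. These settings moved the median change of all genes to -0.30 and -0.26, and to 0.29 and 0.26. Family genes called higher and lower then numbered 14 and 2 in WT cells and 15 and 3 in cells labelled Bach2 KO with the median, and 20 and 0, and 19 and 0, with Cd3e.

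**Figure D1:**
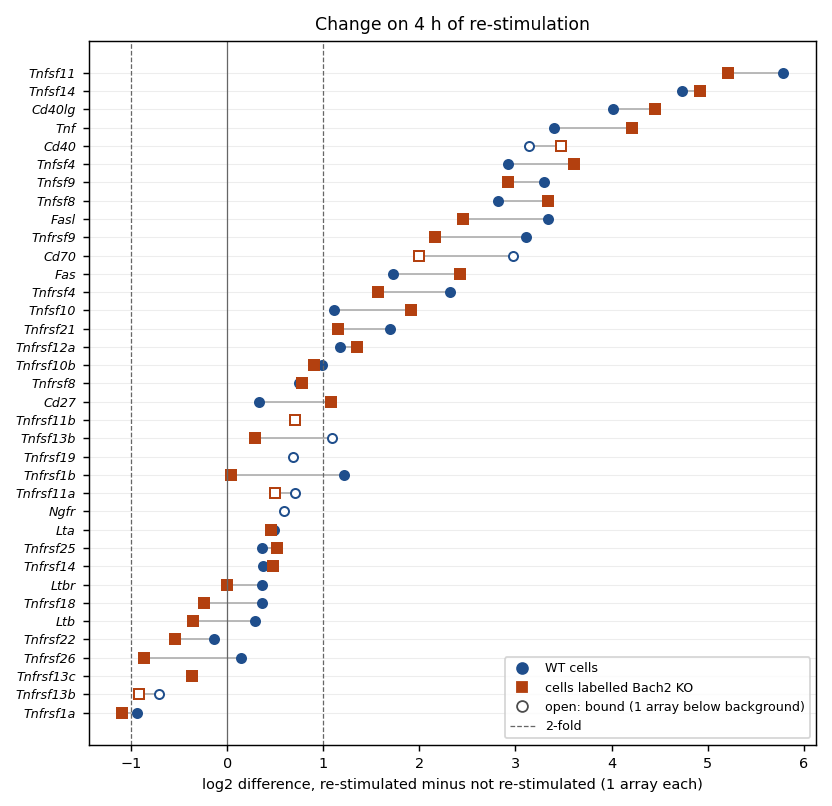
Log2 difference between the re-stimulated and the other array for each family gene used, in WT cells (blue circles) and those labelled Bach2 KO (orange squares), 1 array per condition; open symbols are bounds and dashed lines mark 2-fold. Ligands fill the upper part, led by Tnfsf11 at 5.79 and 5.21, and Tnfrsf1a lies lowest at -0.94 and -1.10.

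Of the ligands, Tnfsf11 (RANKL, transcript NM_011613), which drives osteoclast formation and dendritic cell survival, changed most on re-stimulation. Its signal went from 64.8 to 2567 in WT cells and from 60.8 to 1826 in cells labelled Bach2 KO, 55.3-fold and 37.0-fold. Both re-stimulated arrays lay far above both others, and a further probe of the gene gave log2 changes of 5.81 and 5.02. Tnfsf14 (LIGHT, NM_019418), a ligand of Tnfrsf14 and Ltbr that costimulates T cells, read 1916 and 36530 in WT cells and 1977 and 48680 in cells labelled Bach2 KO. It was 26.6-fold and 30.3-fold higher, and the genotypes differed by 0.05 before and 0.24 after re-stimulation on the log2 scale.

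Cd40lg, the X-linked ligand through which helper T cells license B cells and dendritic cells, read 42.9 and 497.9 in WT cells and 24.8 and 439.6 in cells labelled Bach2 KO. Re-stimulation raised it 16.2-fold and 21.8-fold. In WT cells Tnf (NM_013693), the founding cytokine of the family, went from 2202 to 16620, 10.5-fold. In cells labelled Bach2 KO it went from 1389 to 20870, 18.5-fold, so that the genotype with the lower signal before re-stimulation had the higher one after it. The log2 difference between genotypes was -0.66 before and 0.15 after. Fasl, which triggers death through Fas, moved the other way between genotypes, with signals of 708.6 and 5121 in WT cells and 1146 and 5086 in cells labelled Bach2 KO. It rose 10.1-fold and 5.46-fold. Its further probe gave log2 differences between genotypes of 0.62 and -0.47, against 0.70 and -0.18 for the probe used.

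Of the ligands that costimulate T cells, 4 more were called on re-stimulation of both genotypes. Tnfsf9 (the 4-1BB ligand) went from 45.5 to 319.5 in WT cells and from 52.2 to 321.1 in cells labelled Bach2 KO, 9.81-fold and 7.57-fold. Tnfsf8 (the CD30 ligand) read 2177 and 11000 in WT cells and 1458 and 11990 in cells labelled Bach2 KO, 7.05-fold and 10.1-fold higher after re-stimulation. Tnfsf4 (the OX40 ligand, NM_009452), which on antigen-presenting cells favours Th2 responses, read 189.7 and 1031 in WT cells and 74.5 and 738.9 in cells labelled Bach2 KO. It rose 7.58-fold and 12.2-fold. It was the only family gene called lower in cells labelled Bach2 KO before re-stimulation, 2.53-fold (log2 -1.34, spot error 0.22), and lay 0.65 lower on the log2 scale after it. Cd70, the ligand of Cd27, was not well above background on either array before re-stimulation and read 85.2 and 54.4 after it, at least 7.86-fold and at least 3.99-fold higher.

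The death ligand Tnfsf10 (TRAIL) read 161.5 and 250.1 in WT cells and 204.8 and 624.4 in cells labelled Bach2 KO. The rises were 2.16-fold and 3.75-fold, and after re-stimulation the genotypes differed by 2.21-fold (log2 1.15), which fell to 0.99 with a normexp background model. The lymphotoxins did not pass 2-fold in any comparison. Lta read 13090 and 13170 in WT cells and 8970 and 9964 in cells labelled Bach2 KO, and Ltb, which anchors it in the membrane, read 124000 and 109000, and 108200 and 68660. Their differences between genotypes reached -0.58 and -0.84 on the log2 scale, both after re-stimulation. Fasl and Tnfsf10 are also known products of NK cells. Of 5 NK cell genes 3 were detected and Ncr1 and Klra4 were not, and the list's summed signal over the 75th percentile was 1.47 and 3.88 in WT cells and 3.04 and 3.67 in cells labelled Bach2 KO, before and after re-stimulation. The changes in the sum rest on Eomes, which changed by 2.36 and 0.65 on re-stimulation and differed by 1.61 between genotypes before it. Klrb1c, the larger part of the sum in unstimulated WT cells (337.0 against 282.7 for Eomes), changed by -0.58 and -1.11 on re-stimulation. The part of NK cells in these values was not tested.

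Tnfsf13b (BAFF, NM_033622), a survival factor for B cells that is made mainly by myeloid cells, was the ligand with the largest difference between the genotypes. It was not well above background in unstimulated WT cells and read 23.1 after their re-stimulation, while the arrays labelled Bach2 KO read 108.3 and 107.2. The difference was at least 7.20-fold before and 4.12-fold after re-stimulation, and re-stimulation changed it by 0.29 on the log2 scale in cells labelled Bach2 KO. Of 10 marker genes of macrophages and dendritic cells 5 were well above background on at least 1 array, and the list's summed signal over the 75th percentile was 0.61 and 1.70 in WT cells and 1.36 and 1.79 in cells labelled Bach2 KO, before and after re-stimulation. Lyz2, Fcgr1, Itgam, Flt3 and Clec9a were at background on all 4 arrays, while Itgax, a dendritic cell marker, was detected on the arrays labelled Bach2 KO alone, at 65.7 and 55.7. Adgre1 was higher there in both states, at 410.4 against 184.7 and 160.3 against 48.2 (log2 1.16 and 1.56). The list's higher sum after re-stimulation rests on Mpeg1, which went from 18.2 to 419.0 in WT cells and from 49.6 to 346.6 in the others, while Adgre1 changed by -1.46 and -1.06. Of 8 mast cell and basophil genes 5 were well above background on at least 1 array, with summed signals of 0.17 and 0.19 in WT cells and 2.44 and 2.54 in cells labelled Bach2 KO. Mcpt8 read 309.2 and 333.0 on the arrays labelled Bach2 KO, Cpa3 339.3 and 195.4, Prss34 292.9 and 244.1, and Fcer1a 74.4 and 76.6. These 4 were called higher there in both states, where 5.26% and 5.17% of all genes were. Gata2, at 25.9 and 27.9, was not called. In WT cells only Prss34 before re-stimulation was well above background, at 32.8. Ms4a2, Mcpt4 and Tpsb2 were below on all 4 arrays. The part of such cells in the values of Tnfsf13b was not tested.

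**Figure D2:**
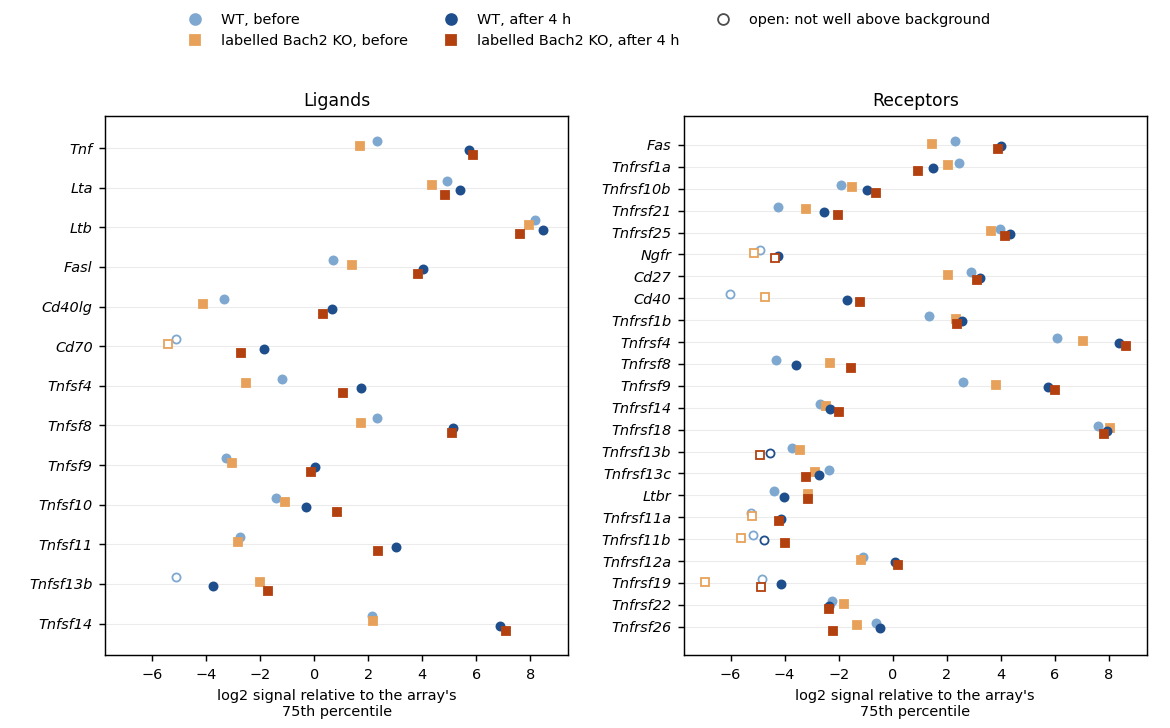
Log2 signal relative to the 75th percentile of its array for each of the 36 family genes detected on at least 1 array, ligands on the left and receptors on the right, with 1 point per array. In most ligands the dark points of the re-stimulated arrays lie to the right of the light ones, whereas Tnfrsf8 and Tnfsf13b separate by genotype.

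Among the receptors with a death domain, Fas rose on re-stimulation and Tnfrsf1a was lower after it. Fas read 2128 and 5053 in WT cells and 1203 and 5229 in cells labelled Bach2 KO, 3.31-fold and 5.35-fold higher after re-stimulation. Before re-stimulation it was 0.82 lower in cells labelled Bach2 KO on the log2 scale, but only 0.18 lower by its other probe. Tnfrsf1a, the TNF receptor found on most cells, went from 2363 to 881.1 in WT cells and from 1798 to 681.9 in cells labelled Bach2 KO, 1.92-fold and 2.14-fold lower, so the 2-fold rule separates nearly equal values. With scaling to the Cd3e probe neither passed 2-fold.

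Tnfrsf21 (DR6), which is known to restrain T cell expansion and Th2 responses in mice, was measured close to background. It read 23.2 and 54.0 in WT cells and 47.5 and 85.5 in cells labelled Bach2 KO, 3.25-fold and 2.22-fold higher after re-stimulation. The difference between genotypes before re-stimulation was 2.06-fold (log2 1.04, spot error 0.33) by the brightest probe and 2.24 on the log2 scale by the other. The probes parted on re-stimulation of cells labelled Bach2 KO, at 1.15 and -0.74. Tnfrsf10b, the receptor of TRAIL, stayed just under 2-fold on re-stimulation by its brightest probe (log2 0.98 and 0.90). Its other probes gave 0.78 and 0.75 in WT cells. In cells labelled Bach2 KO they passed 2-fold, at 1.05 and 1.18, the last a lower bound. Tnfrsf25, the receptor of Tnfsf15, lay between 5360 and 6869 on all 4 arrays. Ngfr was well above background on the re-stimulated WT array alone, at 16.3.

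Of the 6 genes called higher in cells labelled Bach2 KO before re-stimulation, 3 were costimulatory receptors. Tnfrsf9 (4-1BB, NM_011612), induced on activated T cells, read 2666 and 16550 in WT cells and 6174 and 22410 in cells labelled Bach2 KO. It was 2.33-fold higher in cells labelled Bach2 KO before re-stimulation (log2 1.22, spot error 0.20) and 1.20-fold higher after it, and it rose 8.66-fold in WT cells and 4.47-fold in the others. Its second probe gave 0.83 before re-stimulation. Tnfrsf4 (OX40) behaved alike at 29130 and 104000 in WT cells and 57390 and 138200 in cells labelled Bach2 KO. Its difference before re-stimulation, 1.98-fold, lies just outside the 2-fold rule, and re-stimulation raised it 4.98-fold and 2.96-fold.

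Tnfrsf8 (CD30, NM_009401) differed by the same amount in both states. It read 21.7 and 26.1 in WT cells and 87.2 and 121.8 in cells labelled Bach2 KO, 4.04-fold higher before (log2 2.01, spot error 0.31) and 4.14-fold after re-stimulation (2.05, 0.27). Re-stimulation changed it by 0.75 and 0.78 on the log2 scale. Its WT signals were near the lowest that counted as well above background, 15.1 and 14.5. Its ligand Tnfsf8 was 0.57 lower before and 0.05 lower after re-stimulation in cells labelled Bach2 KO.

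Tnfrsf1b (NM_011610), the TNF receptor typical of activated and regulatory T cells, read 1093 and 1822 in WT cells and 2200 and 1843 in cells labelled Bach2 KO. The WT array before re-stimulation was the low one of the 4, and the other 3 lay within 1822 to 2200. The gene was 2.02-fold higher in cells labelled Bach2 KO before re-stimulation, which no longer held by the second probe (log2 0.29), and differed by -0.16 after it. Cd27, which supports the survival of primed T cells, read 3264 and 2946 in WT cells and 1801 and 3095 in cells labelled Bach2 KO. It was called on re-stimulation of cells labelled Bach2 KO (2.12-fold), where its starting signal was the low one of the 4. Tnfrsf18 (GITR), at 76800 to 114000, and Tnfrsf14, at 63.2 to 89.2, did not pass 2-fold anywhere.

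Foxp3, the factor of regulatory T cells, which carry much Tnfrsf4, Tnfrsf18 and Tnfrsf1b, read 50.8 and 19.5 in WT cells and was not well above background on the arrays labelled Bach2 KO. Of its companions, Il2ra lay at 1446 and 1133 in WT cells and at 1748 and 2123 in cells labelled Bach2 KO, and Ikzf2 between 104 and 139 on all 4 arrays. Their part in the receptor values was not tested.

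Cd40, the receptor of CD40 ligand on B cells and antigen-presenting cells, appeared on re-stimulation in both genotypes. It was not called well above background before re-stimulation, with 0 of its 10 spots passing in WT cells and 4 of 10 in cells labelled Bach2 KO, and it read 95.9 and 151.4 afterwards with all 10 spots passing. The rises were at least 8.85-fold and at least 11.1-fold. The receptors of the B cell factors did not rise with it. Tnfrsf13b (TACI) was well above background only before re-stimulation, at 33.1 and 40.1, Tnfrsf13c (the BAFF receptor) read 84.4 and 46.9 in WT cells and 59.8 and 37.7 in cells labelled Bach2 KO, and Tnfrsf17 (BCMA) was below on all 4 arrays. Of 8 B cell genes 4 were well above background on at least 1 array and Cd79a, Ms4a1, Pax5 and Cd22 on none. The list's summed signal over the 75th percentile was 1.40 and 0.60 in WT cells and 1.94 and 1.26 in cells labelled Bach2 KO, lower after re-stimulation in both genotypes. The 4 plasma cell genes were detected on all 4 arrays and differed unevenly between genotypes. Before re-stimulation the log2 differences were 4.64 for Jchain, 1.31 for Prdm1, 0.11 for Xbp1 and -0.28 for Sdc1, and after it they were 4.46, 1.98, 0.38 and 2.54. The part of B cells and plasma cells in the values of these receptors was not tested.

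Of the remaining receptors, Tnfrsf12a (the TWEAK receptor) read 202.4 and 328.0 in WT cells and 194.7 and 404.5 in cells labelled Bach2 KO, 2.26-fold and 2.56-fold higher after re-stimulation. Ltbr, the lymphotoxin β receptor, which lymphocytes largely lack, was near background at 20.9 and 19.3 in WT cells and 49.1 and 39.8 in cells labelled Bach2 KO. It was 2.36-fold higher before (log2 1.24, spot error 0.34) and 1.83-fold after re-stimulation. The part of other cells in Ltbr, as in Tnfsf13b, was not tested. Tnfrsf26 (NM_175649), a mouse receptor that neighbours the decoy receptors of TRAIL, was lower in cells labelled Bach2 KO. It read 281.1 and 223.2 in WT cells and 172.5 and 77.1 in cells labelled Bach2 KO, 3.27-fold lower after re-stimulation (log2 -1.71, spot error 0.22) and 0.70 lower on the log2 scale before it.

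Several other receptors were seen near the limit of detection or not at all. Tnfrsf11a (RANK) read 17.6 and 19.2 on the re-stimulated arrays and was below background on the others, Tnfrsf11b was above on the re-stimulated array labelled Bach2 KO alone, at 22.2, and Tnfrsf19 on the re-stimulated WT array alone, at 17.7. Tnfrsf22, a decoy, lay between 60.3 and 124.2 with no 2-fold difference. Tnfsf12, Tnfsf15, Tnfsf18, Tnfrsf17, Eda2r and Tnfrsf23 were at background on all 4 arrays, so the ligands of Tnfrsf12a, Tnfrsf25 and Tnfrsf18 were not detected beside their receptors. In total 23 of the 36 detected genes passed 2-fold in at least 1 comparison and 13 did not.

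Counted over the family, 5 receptors were called higher in cells labelled Bach2 KO before re-stimulation and 1 after it. Before re-stimulation 6 of 30 genes used (20.0%) were called higher in cells labelled Bach2 KO, Ltbr, Tnfrsf1b, Tnfrsf21, Tnfrsf8, Tnfrsf9 and Tnfsf13b, where 5.26% of all 12136 genes were, and 1 (3.33%) was lower, where 2.82% were. The receptors made up 5 of the 6, out of 18 used, with a median log2 difference of 0.34, against -0.14 over the 12 ligands and -0.003 over all genes. Tnfsf13b was used before re-stimulation only because the array labelled Bach2 KO showed it. The filter on which neither array may be below background left 5 family genes higher and 1 lower, against 425 and 221 of 11287 genes. After re-stimulation 3 of 35 (8.57%) were higher, Tnfrsf8, Tnfsf10 and Tnfsf13b, against 5.17% of all 12348 genes, and 1 (2.86%) lower against 3.85%. The medians were then -0.01 over 22 receptors and -0.18 over 13 ligands, and 0.02 over all genes. Only Tnfrsf8 and Tnfsf13b were called in both states. The overlap over all genes is not given here, so this overlap is not read as a trait of the family.

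**Figure D3:**
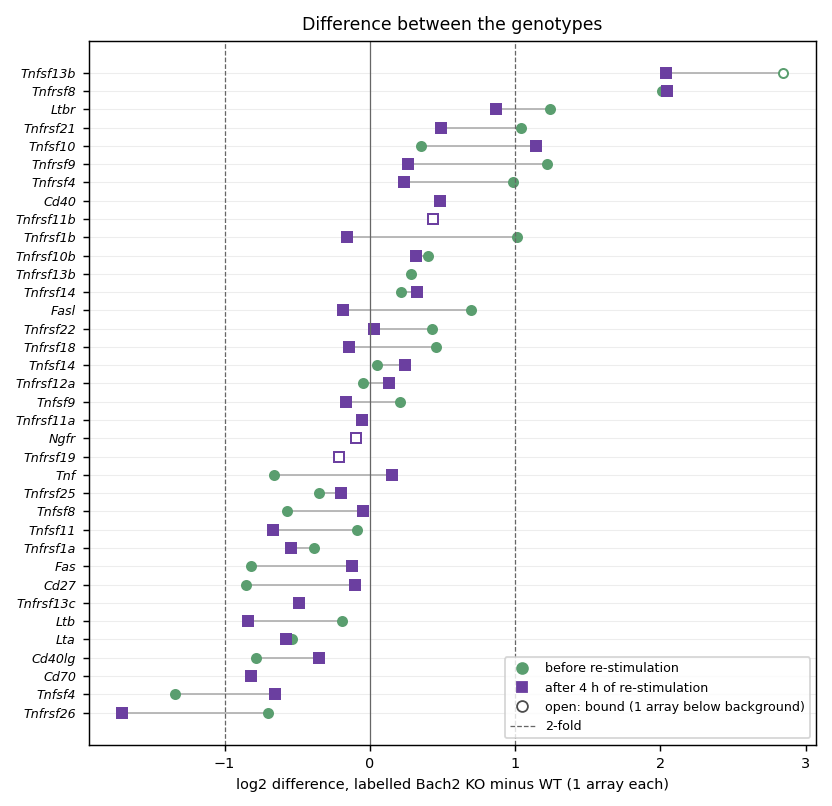
Log2 difference between the array labelled Bach2 KO and the WT array for each family gene used, before (green circles) and after 4 h of re-stimulation (purple squares), 1 array per condition; open symbols are bounds and dashed lines mark 2-fold. Tnfsf13b and Tnfrsf8 lie past 2-fold in both states, and Tnfrsf26 and Tnfsf4 lie lowest.

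Most of these calls depended on the background model. Normexp with an offset of 50, which shrinks differences of dim probes, left 2 family genes higher before re-stimulation, Tnfsf13b and Tnfrsf9, and 0 after it. Calls over all genes fell as well, from 638 to 286 higher in each state, so the loss is not read as a trait of the family. Tnfrsf8 then differed by 0.75 before and 0.87 after, and Ltbr by 0.42. The sign was kept under every alternative that used the gene for all 11 differences between genotypes called.

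**Figure D4:**
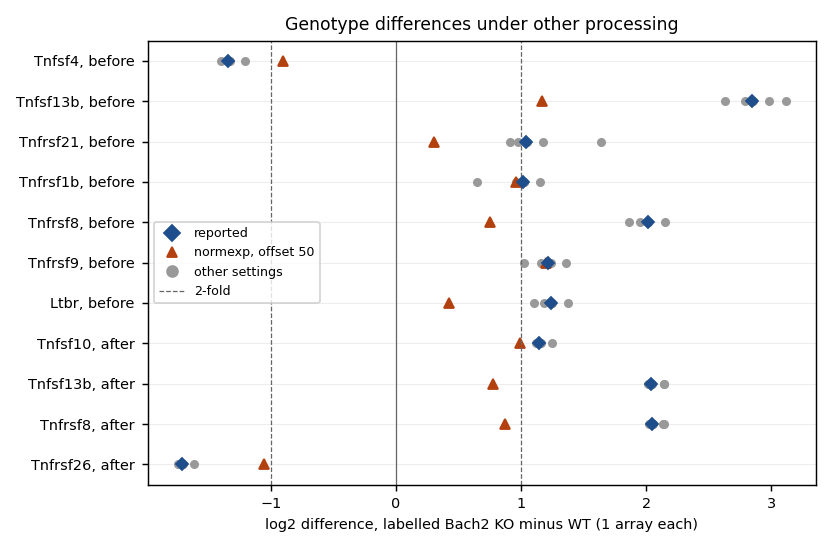
Log2 differences between genotypes past 2-fold (blue diamonds) with their values under the normexp background model (orange triangles) and the other settings (grey), 1 array per condition. Tnfrsf9 and Tnfsf13b before and Tnfrsf26 after re-stimulation stayed past 2-fold under all settings that used them, and the filter on both arrays left Tnfsf13b out.

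The response to re-stimulation, set side by side, differed by at least 2-fold between the genotypes for 2 of the 28 family genes detected on all 4 arrays (7.14%), where 4.82% of 10810 genes did in either direction. These were Tnfrsf1b, whose log2 change in cells labelled Bach2 KO was 1.17 below that in WT cells (0.04 against 1.22), and Tnfrsf26, at -0.86 against 0.15. Neither stayed past 2-fold under every alternative. Tnfrsf9 came next, at 2.16 against 3.11.

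Genes of the family lie in groups on the chromosomes, within 3 places of each other in the order of genes, and neighbours did not always move together. On chromosome 17, Tnf rose 10.5-fold in WT cells between Ltb and Lta, which did not pass 2-fold, whereas Tnfsf9, Cd70 and Tnfsf14, a second group on that chromosome, were all called in both genotypes. On chromosome 1, Tnfsf4 and Fasl rose and Tnfsf18 between them was not detected. On chromosome 4, Tnfrsf4 rose 4.98-fold beside Tnfrsf18 at 1.29-fold, and Tnfrsf1b and Tnfrsf8, both higher in cells labelled Bach2 KO before re-stimulation, parted after it (log2 -0.16 and 2.05). On chromosome 7, Tnfrsf26 was lower in cells labelled Bach2 KO after re-stimulation while Tnfrsf22 differed by 0.03.

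Downstream of the receptors, the genotypes did not differ by 2-fold in any measured gene of 2 lists. Of 24 genes for TRAF proteins and adaptors, all well above background on all 4 arrays, 0 were called between genotypes in either state, with medians of 0.04 and 0.02, where 5.26% of all genes were higher and 2.82% lower before and 5.17% and 3.85% after re-stimulation. On re-stimulation 3 were higher and 2 lower in WT cells, and 5 higher and 1 lower in cells labelled Bach2 KO, counts to be read against the 13.2% higher and 13.5% lower, and 12.4% and 13.0%, of all genes. Traf1, an NF-kB target that modifies TRAF2 signals, changed by 1.45 and 2.21, Birc3, a ubiquitin ligase of the TNF receptor complex, by 1.62 and 1.31, and Cflar, an inhibitor of caspase-8, by 1.36 and 1.45 on the log2 scale. Ripk3, the kinase of necroptosis, changed by -1.36 and -1.12. Tradd, the adaptor of Tnfrsf1a, changed by -1.06 and -0.94, the second short of 2-fold.

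Of 19 NF-kB and feedback genes, 17 were well above background on at least 1 array, Nfkb1 had no matched probe and Rel was below on all 4. Between genotypes 0 of 16 genes used before and 0 of 17 after re-stimulation were called, which in lists of this length is read against the same small shares of all genes. On re-stimulation 10 of 17 were higher in WT cells and 9 of 17 in cells labelled Bach2 KO, where 13.2% and 12.4% of all genes were, with medians of 1.12 and 1.41. The feedback inhibitors Tnfaip3 and Nfkbia changed by 4.46 and 3.76, and by 3.31 and 3.09, and the subunits Nfkb2 and Relb by 3.39 and 3.00, and by 3.09 and 2.75. Adam17, which sheds TNF from the membrane, did not differ by 2-fold in any comparison, between 528 and 776 on the 4 arrays. Relt, a TNF receptor outside the list, was 2-fold lower on re-stimulation of WT cells (log2 -1.19) and short of that in cells labelled Bach2 KO (-0.81).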

How the data were processed

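RNA from Th cells was hybridised in 1 colour to 4 Agilent mouse arrays, 1 per condition, whose headers give 1 scan time. Per the file headers, Feature Extraction 10.7.3.1 corrected each spot for background and for spatial trends, and the authors deposited this intensity for 43379 spots. The authors also deposited a table of log2 values, which lay within 0.01 of log2 intensity minus the 75th percentile for 41001 to 41026 of 41173 probes on each array. Its columns have medians between -4.09 and -3.77, it is not centred per gene, and it was used as an alternative.

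For the values reported, 107 to 120 spots per array flagged as uneven or as outliers were left out, the log2 values of the spots of a probe were averaged, and each array was scaled by its 75th percentile over all probes. 0 spots used were saturated. The share of probes well above background was 53.6% to 54.0%. Transcripts were matched to names in a RefSeq gene table of GRCm38.p6 for 27479 probes, of which names, chromosomes and gene order alone were used. A gene was read from its brightest probe. The family genes given in full are those past 2-fold in at least 1 comparison. Family genes, lists and motifs were chosen with earlier results of these data known. With 1 array per condition no test was made. There were 12 alternatives, and the scripts were checked on simulated arrays. Software was Python 3.11.15 (pandas 2.3.3) and R 4.3.3 (limma 3.58.1).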

Additional observations from a re-analysis of the deposited data

Results flagged for a closer look

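For 5 genes the same comparison pointed in opposite directions in 2 groups, each value beyond the median spread between probes and the gene's spot error. The condition on the spot error was added after the values were seen, and the difference between the groups was not tested.

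Between genotypes, Tnf differed by -0.66 on the log2 scale before and 0.15 after re-stimulation, Fasl by 0.70 and -0.18, and Tnfrsf1b by 1.02 and -0.16, taken as cells labelled Bach2 KO minus WT cells. Tnf is a ligand of Tnfrsf1b. On re-stimulation, the values in WT cells and those labelled Bach2 KO were 0.29 and -0.36 for Ltb, and 0.36 and -0.24 for Tnfrsf18. Other settings moved the value of Ltb in WT cells between -0.09 and 0.59 and that of Tnfrsf18 in cells labelled Bach2 KO between -0.50 and 0.02, so the opposite direction of these 2 genes depended on the setting.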

How the results depend on the processing

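No paired analysis was possible because the labels give no replicate numbers and each condition has 1 array, and for the same reason no replicate could be left out. Of 1604 values of single genes, 1299 stayed within the typical SD between probes under the alternatives, and none of the values past 2-fold changed sign. Of 116 counts of genes 95 stayed within 1.5 times. Counts of 0 to 2 move past that limit with 1 gene.

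With scaling to the median, genes called lower on re-stimulation numbered 2 in WT cells and 3 for those labelled Bach2 KO, and 1 response was lower in cells labelled Bach2 KO than in WT cells. With quantile normalization the first counts were 1 and 2. With scaling to the Cd3e probe 0 genes were lower on re-stimulation of cells labelled Bach2 KO. With normexp, 2 genes were higher and 0 lower in cells labelled Bach2 KO before re-stimulation, 0 were higher after it, and 1 response was lower. With no floor and no filter, 2 genes were lower in cells labelled Bach2 KO before re-stimulation, 2 were lower on re-stimulation of those cells, and 3 responses were higher and 4 lower, with probes below background counted. A 1.5-fold rule gave 6 genes lower before and 5 after re-stimulation between genotypes, and 2 and 3 lower on re-stimulation in WT cells and those labelled Bach2 KO. A 3-fold rule gave 2 higher and 0 lower between genotypes before re-stimulation and 0 lower on re-stimulation of cells labelled Bach2 KO. The fold rules, the missing filter and the scalings act by their construction, and for normexp and quantile normalization the cause was not tested.

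Past 2-fold under every alternative that used the gene were 2 of 7 genotype differences before re-stimulation and 1 of 4 after it. The same held for 13 of 18 changes in WT cells and 14 of 18 in cells labelled Bach2 KO.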
